A study of Mus musculus with 3 samples.

Results

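Bidirectional promoter long noncoding RNAs are transcribed away from a protein-coding gene whose promoter lies at their own start. The 201 genes described here, called members, are those with at least 1 transcript that GENCODE release M21 types as such an RNA and none typed lincRNA, antisense or protein coding. Their annotation alone chose them, out of 55536 annotated genes. The exclusion of symbols beginning with Snhg, Mir or Dleu removed none of them. The study sequenced total RNA, depleted of ribosomal RNA, that stayed with chromatin when mouse macrophages grown from bone marrow (BMDM) were fractionated. All 3 libraries form 1 group. These C57BL/6J cells received 100 ng/ml lipid A, the TLR4-activating part of lipopolysaccharide, for 12 h, spent 12 h after its removal, and received 100 ng/ml again for 30 min. The labels give separate biosamples with 1 donor identifier and no age or sex, so p-values measure only the spread between these samples, which may be technical. No unexposed cells were analysed here, so the levels say nothing of what lipid A changed.

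Most mammalian promoters of the CpG-rich kind start polymerases in both directions. The upstream transcript is usually ended early and removed by the nuclear exosome, while splicing and the scarcity of early termination signals favour the coding direction. Annotated bidirectional promoter RNAs are the upstream transcripts that are long or stable enough to have been cloned as genes, and the chromatin fraction holds RNA that has not yet left its template.

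Expected counts (estimated reads per gene) totalled 12532722, 18395358 and 18237730 for the 3 replicates in order, with 20988 to 21683 genes detected per library. TPM is an abundance corrected for transcript length and scaled to a fixed sum. RNA input was 1 µg, 250 ng and 500 ng in replicates 1, 2 and 3, so input and replicate cannot be told apart. All 10 macrophage markers lay above 1 TPM, with sums of 1160 to 1396 TPM. Of the 8 lymphocyte markers, Cd4 alone did, at 7.40, 6.54 and 8.05 TPM, and the T cell marker Cd3e had 0 TPM. None of the 7 granulocyte or mast cell, 4 dendritic and 7 stromal, endothelial or epithelial markers passed, and of 5 erythroid or megakaryocyte markers Gp9 and Pf4 did, at means of 2.89 and 3.32 TPM.

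The members' start regions are shown first, because the arrangement of starts defines the class. A coding partner was taken as the protein-coding gene on the other strand with the closest annotated transcript start, at most 1000 bases away. It was found for 196 members. Starts were a median of 119 bases apart, with quartiles of 68.75 and 220.75 bases and a range of 1 to 896. In 153 pairs the transcripts diverged with a gap between the starts, and in 43 pairs the starts had passed each other so that the transcripts overlapped head to head. This sorting uses only the closest starts. The gene spans overlap in 77 pairs, so some of the 153 overlap as well. Only 2 members had the same partner, 1700018B08Rik, which leaves 195 distinct partners. The distribution of start distances has its highest bar just on the diverging side of 0.

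**Figure D1:**
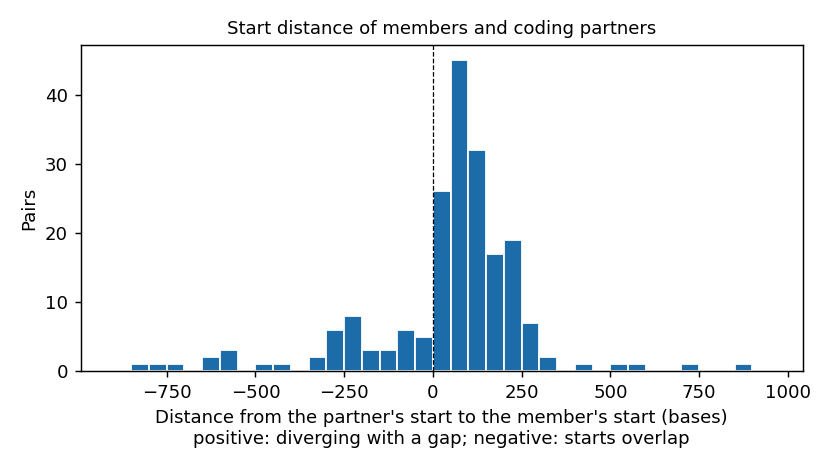
Number of member and partner pairs (vertical axis) by distance in bases between their closest annotated starts (horizontal axis, 196 pairs), positive where the transcripts diverge with a gap and negative where the starts overlap. Of the pairs, 153 lie right of the dashed line at 0 and 43 left of it.

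RefSeq start windows on GRCm38.p6, from 250 bases before to 50 after a start, matched 98 members by symbol, and 63 of these windows started within 50 bases of the member's GENCODE 5′ end. The 5 sequences below cover members that the results turn on: the 1st and 3rd by level, each above its partner, and 3 that lay below theirs. Each runs 5′ to 3′ on the member's strand, begins next to the partner's first annotated transcribed base, and ends with the first 50 bases after the member's RefSeq start. Capitals mark matches on either strand to the TATA box letters (TATAAA), the inverted or direct CCAAT box, the GC box letters (GGGCGG) or the letters bound by ETS factors (CCGGAAGT), and adjoining matches run together.
A930037H05Rik: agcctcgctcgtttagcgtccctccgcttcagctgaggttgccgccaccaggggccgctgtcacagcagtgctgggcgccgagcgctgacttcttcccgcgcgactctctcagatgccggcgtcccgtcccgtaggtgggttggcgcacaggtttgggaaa
4632427E13Rik: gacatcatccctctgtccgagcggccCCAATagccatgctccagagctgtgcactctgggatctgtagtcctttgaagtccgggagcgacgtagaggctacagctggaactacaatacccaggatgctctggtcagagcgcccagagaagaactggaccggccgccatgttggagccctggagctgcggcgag
Gm16675: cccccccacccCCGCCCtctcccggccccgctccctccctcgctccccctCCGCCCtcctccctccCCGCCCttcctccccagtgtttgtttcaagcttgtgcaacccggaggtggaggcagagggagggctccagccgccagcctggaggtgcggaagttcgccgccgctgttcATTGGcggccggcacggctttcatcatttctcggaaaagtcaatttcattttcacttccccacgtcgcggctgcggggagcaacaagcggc
Gm16576: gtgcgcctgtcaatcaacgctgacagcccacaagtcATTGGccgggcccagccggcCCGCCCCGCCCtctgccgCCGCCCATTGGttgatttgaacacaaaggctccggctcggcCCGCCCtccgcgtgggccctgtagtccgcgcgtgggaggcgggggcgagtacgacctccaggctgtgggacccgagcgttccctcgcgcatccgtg
0610009L18Rik: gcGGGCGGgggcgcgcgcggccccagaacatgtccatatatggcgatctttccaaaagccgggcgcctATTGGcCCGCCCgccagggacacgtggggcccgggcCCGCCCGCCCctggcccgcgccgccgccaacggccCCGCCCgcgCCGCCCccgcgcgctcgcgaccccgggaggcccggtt

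The stretch shown for A930037H05Rik, beside Endov, at chr11:119491186-119491346 on the minus strand, held none of the 4 motifs. That of 4632427E13Rik, beside Rab30, at chr7:92741410-92741602 on the minus strand, held 1 CCAAT. The Gm16675 and Irf2 stretch, at chr8:46739466-46739731 on the minus strand, held 1 CCAAT and 3 GGGCGG. The Gm16576 and Sun2 stretch, at chr15:79742537-79742747 on the plus strand, held 2 CCAAT and 4 GGGCGG. The 0610009L18Rik and Actg1 stretch, at chr11:120348543-120348727 on the plus strand, held 1 CCAAT and 6 GGGCGG, and none of the 5 held TATAAA. These counts cover only the stretches shown. The full RefSeq window of A930037H05Rik does hold CCGGAAGT, and that of 4632427E13Rik does hold GGGCGG.

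The 98 member windows, not all of which lie at the member's GENCODE 5′ end, were rich in G, C and CpG. Their median GC content was 66%, against 52.7% over all 32851 RefSeq windows. Their median number of CpG sites was 27.5 against 7, and their median ratio of observed to expected CpG was 0.854 against 0.384. GC of at least 50% with a ratio of at least 0.6 was met by 73 member windows (74.5%) and by 33.5% of all windows. The TATA box letters were in 4.08% of member windows and 13.6% of all windows, those of the GC box in 64.3% and 35.7%, and those of ETS factors in 13.3% and 3.89%. The 4 member windows with TATA box letters had RefSeq starts 55, 199, 5523 and 80862 bases from the GENCODE 5′ end. Shares over only the windows near that end were not computed. Among CpG-rich windows alone, the shares for members and for all windows were 74.0% and 75.8% for the GC box, 16.4% and 8.65% for the ETS letters, and 1.37% and 4.57% for the TATA box. The CCAAT box was in 34.7% of member windows and 37.4% of all. The NF-kB consensus was in 9.18% and 8.46%, the YY1 core AAGATGGCG in 3.06% and 1.403%, the NRF1 core in 8.16% and 4.60%, and the ISRE core, bound by interferon regulatory factors, in 2.04% and 3.44%. Among CpG-rich windows the YY1 core was in 4.11% of members' and 3.47% of all, and the NRF1 core in 10.96% and 12.39%. All motifs were searched on both strands, and a match is a description of letters only.

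The members sat unevenly on the annotation. Chromosome 12 held 30, chromosomes 8 and 10 held 23 each, 17 held 21, 15 held 19 and 7 held 14. Chromosomes 1, 3, 5 and X held none, although they held 538, 433, 547 and 141 lincRNA and antisense genes. A single annotated transcript was listed for 129 members, and 50 members had a single exon.

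Most members were scarce on chromatin. No count was assigned to 64 of the 201 in any library, 137 had a nonzero TPM in at least 1 library, and 95 had counts in all 3. Mean levels reached 0.1 TPM in 114 members, 1 TPM in 43, 5 TPM in 12 and 10 TPM in 4, and the median over all 201 was 0.173 TPM. Against a level of 1 TPM, 29 members passed (limma, one-sided, Benjamini-Hochberg adjusted p under 0.05), which is 21.2% of the 137 tested, where 51.1% of all 24180 genes tested passed. Against 5 TPM, 7 members passed, where 29.2% of all genes tested did. Both shares lie below those over all genes, a difference that was not tested. For the 64 members at 0 counts, 3 counts over the group would equal 0.0159 to 1.90 TPM depending on length, with a median of 0.126, and these limits cover counting error only.

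Set beside the other annotation classes, the members had a share of detected genes near that of coding genes and levels nearer those of the noncoding classes. A nonzero TPM was found for 68.2% of members, 68.8% of 21901 protein-coding genes, 54.8% of 2948 antisense genes and 25.2% of 5844 lincRNA genes. Among genes with a nonzero TPM, the median was 0.433 TPM for members, 0.23 for lincRNA, 0.803 for antisense and 4.22 for protein-coding genes. The share of tested genes above 1 TPM was 21.2% in members, 20.4% in lincRNA, 34.0% in antisense and 61.9% in protein-coding genes. In the plot of levels by class, the members' curve starts beside that of the coding genes and drops towards that of the antisense genes.

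**Figure D2:**
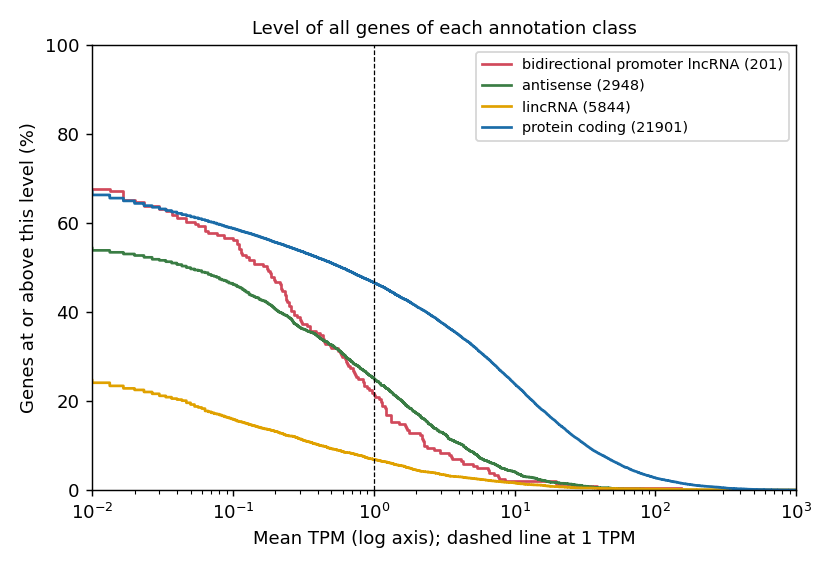
Percentage of all genes of a class (vertical axis) whose mean TPM over 3 libraries is at or above the level on the horizontal log axis, for 201 members, 2948 antisense, 5844 lincRNA and 21901 protein-coding genes. A nonzero TPM was found for 68.2% of members and 68.8% of protein-coding genes, and at 1 TPM (dashed line) the members lie below the antisense genes.

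A single RNA, A930037H05Rik, made up a large share of all member RNA. The members summed to 434, 361 and 347 TPM in replicates 1, 2 and 3, of which A930037H05Rik gave 43.6%, 39.2% and 35.2%. This gene spans chr11:119448788-119491298 on the minus strand of mm10 and diverges from Endov, an RNA endonuclease gene that recognises inosine, with 49 bases between the starts. Its level was 189, 142 and 122 TPM in replicates 1, 2 and 3, and Endov had 6.77, 8.46 and 8.08 TPM. The noncoding RNA was the higher of the pair in every library, and the groups of values did not overlap. The difference was 4.25 ± 0.26 on the log2(TPM + 0.1) scale (SE, n = 3, limma adjusted p = 0.000148), a ratio of means of 19.4. In the second transcript table, a separate estimate made directly from the reads, it was 3.12, with means of 123 and 13.8 TPM. Of its exon bases, 16.3% overlap exons of Rnf213, a large ubiquitin ligase gene on the other strand with 938, 1061 and 957 TPM. This share counts exon on exon only. Rnf213 spans chr11:119393100-119487418, introns included, so most of the span of A930037H05Rik lies within it. The use of strand in counting is not given in the sources used here, and the part of Rnf213 reads in the level was not tested.

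E230013L22Rik, the next in level, had 41.0, 29.2 and 44.4 TPM, and its partner Rab20, a small GTPase gene of endocytic vesicles, had 56.8, 40.4 and 49.2 TPM. Both were lowest in replicate 2, and their difference of -0.36 ± 0.20 (log2, SE, n = 3) did not pass (limma adjusted p = 0.165). The pair is annotated head to head with starts overlapping by 781 bases, and 19.2% of the member's exon bases overlap Rab20 exons. 4632427E13Rik, at chr7:92734166-92741468 on the minus strand, had 30.4, 21.7 and 24.5 TPM. Its partner Rab30, a small GTPase gene of the Golgi, had 0.01, 0.05 and 0.02 TPM. The noncoding RNA was far the more abundant of the pair in all 3 libraries, with a difference of 7.66 ± 0.26 (log2, SE, n = 3, limma adjusted p = 3.82e-05), which the added 0.1 holds down. In the second table the difference was 3.71, and the means were 19.5 and 1.39 TPM.

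AC114539.1 and Gm16675 were the only members whose partner was in the lists of 95 inflammatory and 50 interferon genes. AC114539.1, at chr19:46303591-46305611 on the minus strand, had 18.2, 15.1 and 25.5 TPM beside the NF-kB subunit gene Nfkb2 at 64.1, 45.8 and 77.8 TPM. Both genes were highest in replicate 3 and lowest in replicate 2, and the member lay 1.67 ± 0.19 below its partner on the log2 scale (SE, n = 3, limma adjusted p = 0.00115). In the second table the difference was -2.43. Exons of Nfkb2 overlap 30.1% of the exon bases of AC114539.1. A shared highest library was not the usual case among member pairs, as counted below. Gm16675, at chr8:46668808-46739515 on the minus strand, had 10.5, 9.07 and 6.15 TPM beside Irf2, an interferon regulatory factor gene, at 181, 136 and 134 TPM. No exon of Gm16675 overlaps another gene's, and it lay 4.14 ± 0.22 below Irf2 on the log2 scale (SE, n = 3, limma adjusted p = 9e-05), a ratio of means of 17.6.

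Members from the 6th to the 15th rank lay between 3.58 and 7.79 TPM. Gm47126 had 7.55, 7.36 and 8.47 TPM from only 5.91, 5.64 and 7.18 counts, has no coding partner within 1000 bases, and shares 97.8% of its exon bases with the lincRNA gene Gm26797 on the other strand, so its level is uncertain. It was at 0 in the second table. Gm26631 had 7.33, 8.67 and 6.72 TPM, and its partner Fam219b 3.28, 7.10 and 7.34, with no call between them (limma adjusted p = 0.266). F730043M19Rik, with up to 9 exons the member with the most, had 8.59, 6.19 and 6.83 TPM beside Atxn7l1 at a mean of 73.9. Gm45418 had 10.6, 5.34 and 3.81 TPM beside Ddx60, an interferon-induced helicase gene, at 529, 459 and 358 TPM. Both genes were highest in replicate 1 and lowest in replicate 3, with a ratio of means of 68.3 in favour of Ddx60 and a difference of -6.18 ± 0.27 (log2, SE, n = 3, limma adjusted p = 5.62e-05). Of the exon bases of Gm45418, 50.1% overlap the antisense gene 4930512H18Rik, which had a mean of 7.67 TPM.

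Ndufb1-ps, whose symbol is that of a respiratory complex I subunit gene with a pseudogene suffix, had 6.85, 5.71 and 6.99 TPM. Whether reads of another gene add to this level was not tested. Its partner Cpsf2, a subunit gene of the mRNA cleavage complex, had 6.61, 5.97 and 5.63 TPM, with no call between them (difference 0.10 ± 0.20, log2, SE, n = 3, limma adjusted p = 0.676). The call depended on the measure: the member lay above Cpsf2 in the second table, by 1.30 (limma adjusted p = 0.00124), and below it in CPM, which has no length correction, at -3.24 (limma adjusted p = 3.71e-05). Gm17251 was the steadiest of the 15, at 5.58, 5.30 and 5.27 TPM, beside Rab11b, a GTPase gene of recycling endosomes, at 7.91, 8.41 and 9.03. That difference of -0.64 ± 0.20 passed (log2, SE, n = 3, limma adjusted p = 0.0342) and was lost in each fit that left out a library and with 0.01 in place of the added 0.1. The starts of Gm17251 and Rab11b overlap by 314 bases, and 35.6% of the member's exon bases overlap Rab11b exons. E230016M11Rik had 5.05, 4.79 and 5.39 TPM, while its partner Gadd45a, a stress-induced growth arrest gene, had 21.9, 8.53 and 35.1 TPM. The coding gene's values spread widely over libraries in which the member's differed little. The difference of -1.87 ± 0.42 (log2, SE, n = 3, limma adjusted p = 0.0121) no longer passed without replicate 1, at -1.75, or in CPM, at -0.67. 9330151L19Rik had 3.57, 5.80 and 3.61 TPM and 4930534H18Rik 4.57, 4.27 and 3.71. Gm2449 had 5.27, 0.93 and 4.54 TPM and missed the 1 TPM test (limma adjusted p = 0.0626), passing once replicate 2 was left out.

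The plot of the 29 members above 1 TPM shows the steep drop from A930037H05Rik to the rest. Among those not yet described, AC132253.4, Gm49041 and 0610009L18Rik had the values closest to 1 TPM in a library. Gm16576, beside the nuclear envelope gene Sun2, was the most even of all 29 at 2.93, 3.02 and 2.92 TPM. Across the 29, the coefficient of variation ran from 1.86% to 57.0% with a median of 18.3%, and the highest value was in replicate 1 for 11 members, replicate 2 for 12 and replicate 3 for 6. By this count no library was the high one for most of the 29, although the TPM summed over all members was highest in replicate 1. AC132253.4, beside the chromosomal passenger gene Incenp, had the 57.0%, at 5.16, 1.30 and 3.88 TPM from 10, 3 and 7 counts, and lost its call without replicate 1 or replicate 3. Larger spreads were seen among the 14 members with a mean of at least 1 TPM that did not pass: 2310010J17Rik had 2.50, 0 and 1.15 TPM from 3 counts in all, A130014A01Rik 0.62, 2.10 and 0.71, and Gm49066 0.79, 1.76 and 0.49. The partners of the last pair were Zdhhc7, a palmitoyltransferase gene that was also highest in replicate 2 at 8.04 TPM, and Ptk2, the focal adhesion kinase gene, which held 14.8 to 15.4 TPM.

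**Figure D3:**
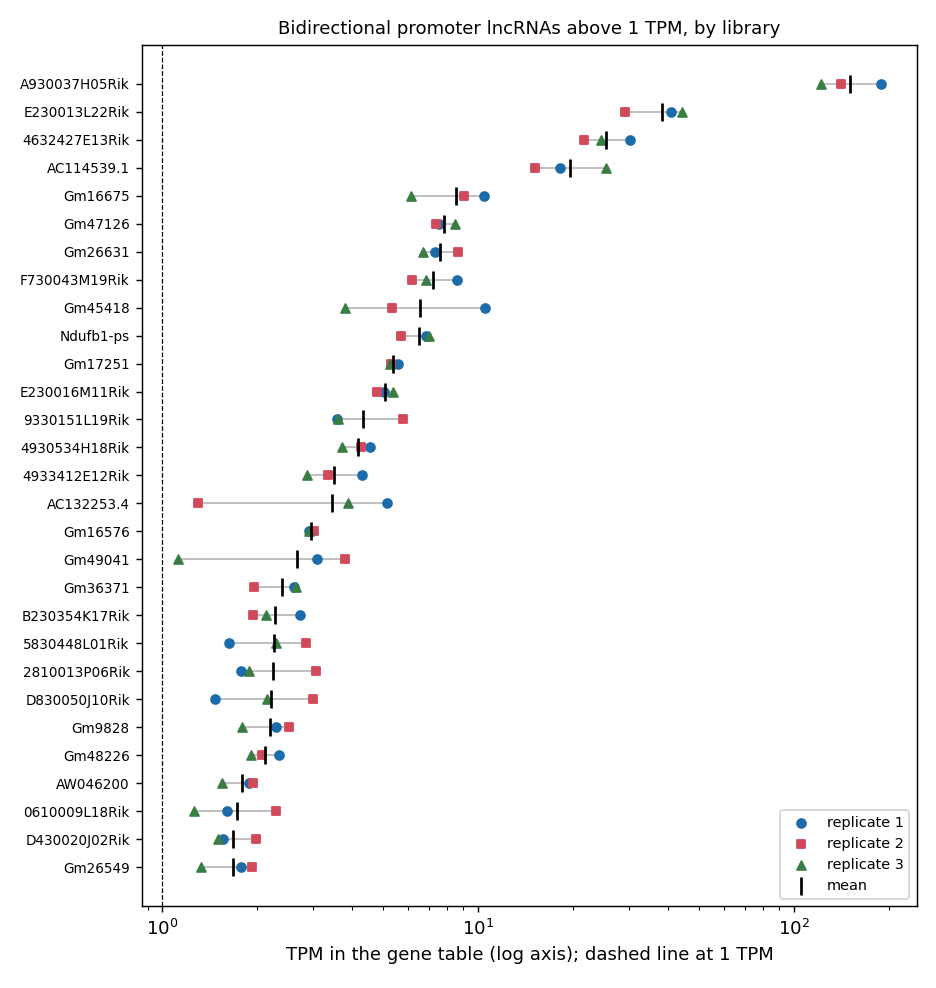
TPM on a log axis for each library (symbols) and their mean (black bar) for the 29 members that passed the test against 1 TPM (dashed line), in order of mean. A930037H05Rik lies at 122 to 189 TPM and the lowest of the 29 has a mean of 1.68 TPM.

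The usual state of a member was to lie well below its coding partner. Of 178 pairs with a nonzero value, 147 members lay below their partner and 4 above it (limma on the within-library difference, two-sided, adjusted p under 0.05), and 27 were not called. Over all 1697 pairs of a long noncoding gene with a coding partner, 76.9% lay below and 4.42% above, and the 1519 pairs of other noncoding classes gave 76.2% and 4.67%, against 82.6% and 2.25% for the members. The median difference was -4.25 on the log2(TPM + 0.1) scale, with quartiles of -6.21 and -1.87, against -3.37 over all pairs. The members' share and median are thus somewhat further towards the coding side, a difference that was not tested. Of the members in these pairs, 44 had 0 counts beside a nonzero partner. Raising them to the TPM of 3 counts moved the median difference of mean levels over the 176 pairs with a nonzero partner from -4.16 to -3.83.

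**Figure D4:**
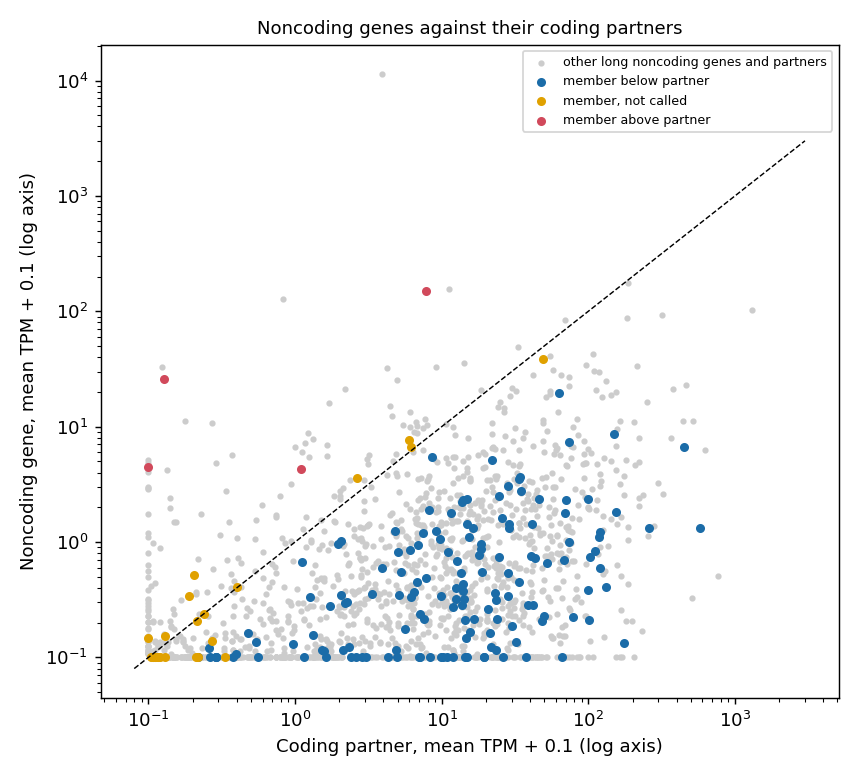
Mean TPM + 0.1 of each noncoding gene (vertical log axis) against its coding partner (horizontal log axis), with equal levels on the dashed line, for the members (coloured by call) and the other long noncoding genes (grey). The members include 147 points below their partner, 4 above and 27 not called.

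The 4 members above their partner were A930037H05Rik, 4632427E13Rik, 9330151L19Rik and 4930534H18Rik. Apart from Endov, their partners had means under 1 TPM. The partner of 9330151L19Rik, Gm49383, had 0 TPM in every library, so the difference of 5.43 is set by the added 0.1 and is no bound. Exons of Dnaaf2, a dynein arm assembly gene at 0.16, 1.02 and 0.59 TPM, overlap 43.5% of the exon bases of 9330151L19Rik, whose counts were 89.9, 211 and 124. 4930534H18Rik lay 1.98 ± 0.19 above Cfap298, a gene of motile cilia with 1.09, 1.06 and 0.82 TPM (log2, SE, n = 3, limma adjusted p = 0.000592). The member had 72 counts in all. The starts of this pair overlap by 147 bases, and 22.4% of the member's exon bases overlap Cfap298 exons. 4933412E12Rik, at 4.31, 3.36 and 2.88 TPM, was not called against Rab3ip, an exchange factor gene for a vesicle GTPase, at 2.12, 3.88 and 1.66 TPM (difference 0.52 ± 0.31, log2, SE, n = 3, limma adjusted p = 0.191). It was called above Rab3ip in the second table, at 1.75 (limma adjusted p = 0.000361), and without replicate 2, at 0.88 (limma adjusted p = 0.0469).

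At the other end were members with next to no RNA beside strongly read coding genes. 4930583K01Rik had 1 count in all, at 0, 0.10 and 0 TPM, beside Smg1, the kinase gene of nonsense-mediated decay, at 177, 177 and 169 TPM. Its partner was 5233-fold higher by means, with a 95% counting interval of 939 to 206678 (exact Poisson). AC144797.2, from 2 counts, was 922-fold below Brwd1 (interval 255 to 7609), 1700120B22Rik, from 1.21 estimated counts, 636-fold below the ubiquitin ligase gene Herc4 (130 to 14554), and 2310010J17Rik 213-fold below the clathrin assembly gene Picalm (72.9 to 1033). Gm44140 had 0 counts beside Atf7ip, a cofactor gene of histone methylation, at 73.4, 57.8 and 65.6 TPM, so that Atf7ip was at least 391-fold higher, taking 3 counts over the group as the limit. Gm20337 had, from 45 counts, 1.03, 1.32 and 1.31 TPM beside Srsf5, an SR splicing factor gene, at 558, 521 and 655 TPM. The gap of -8.78 ± 0.21 (log2, SE, n = 3, limma adjusted p = 2.92e-05) is a ratio of means of 474. In the second table the differences were smaller for Gm20337, at -6.00 with means of 6.99 and 453 TPM, for 2310010J17Rik, at -6.05 with means of 4.66 and 315 TPM, for 1700120B22Rik, at -7.45, and for AC144797.2, at -8.45. The plot of 8 pairs by library shows this range of balances.

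**Figure D5:**
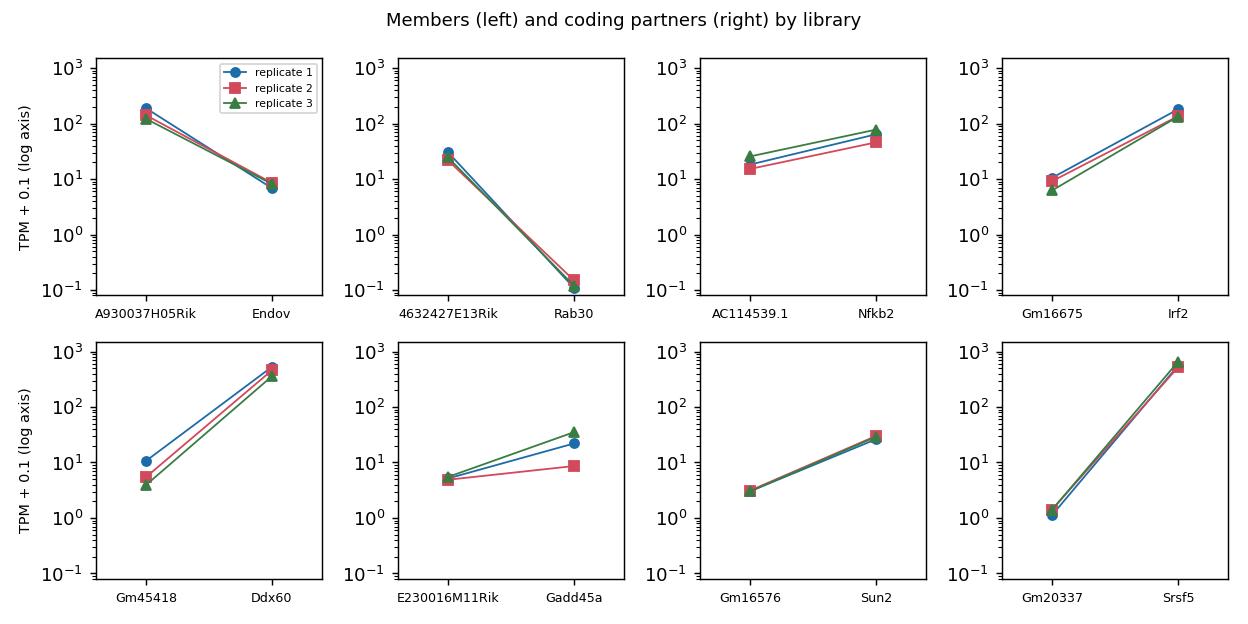
TPM + 0.1 (log axis) of a member (left) and its coding partner (right) in each of 3 libraries (lines), for 8 pairs. Lines slope down for A930037H05Rik and 4632427E13Rik and up for the other members, most steeply for Gm20337 and Srsf5.

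All 24 members whose partner had at least 50 TPM lay below it, by 1.67 to 10.43 on the log2 scale. The choice of pairs fixed this direction. Only A930037H05Rik had a mean above 38.2 TPM among the members, and its partner had 7.77 TPM. The share among other noncoding genes with such partners was not computed. The partners of the 24 include the splicing factor genes Srsf5 and Srsf3, the gamma-actin gene Actg1 and the sheddase gene Adam17. Next to Actg1, at a mean of 155 TPM, 0610009L18Rik had 1.61, 2.30 and 1.26 TPM. It passed 1 TPM, yet the coding gene was 90.1-fold higher by means. The second table narrowed this gap, with 4.396 TPM for 0610009L18Rik and 108 for Actg1. Gm16196, beside Srsf3 at a mean of 119 TPM, had 0.37, 0.48 and 0.64 TPM and did not pass.

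The share of members detected was larger in each higher class of partner level, which is given as a description. With partners under 1 TPM, 16 of 56 members had a nonzero TPM and 3 passed 1 TPM. With partners of 1 to 10 TPM these counts were 39 and 6 of 51, with 10 to 50 TPM 56 and 11 of 65, and from 50 TPM 23 and 8 of 24. The median member level went from 0 through 0.233 and 0.30 to 0.947 TPM. These shares were not computed for the other noncoding pairs, so the trend is not shown to be particular to the members. Across the 178 tested pairs, log2 levels of member and partner had a Pearson r of 0.42 and a Spearman rho of 0.48, against 0.47 and 0.48 over the 1519 other pairs; these are across genes of the same libraries, and genes are not independent replicates. Among 39 pairs with both means at 1 TPM or more, 12 had their highest value in the same library, against 185 of 390 other pairs (47.4%). The pairs of AC114539.1, Gm45418 and A130014A01Rik, described above, are among these 12, and in most of the 39 the highest library differed.

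In 18 pairs neither gene had a count. They include the homeobox gene Hoxd1 with Haglr, Gsc with Gm10000, the transcription factor genes Osr1 and Mkx with 1700022H16Rik and AC148004.1, and the thyroid hormone deiodinase gene Dio3 with Dio3os. A further 20 members at 0 counts had a partner above 1 TPM. Among them, Gm48695 had no count beside Nin, a centrosome gene at a mean of 26.2 TPM, and 1700010B13Rik none beside Slc45a4 at 14.3 TPM. In 23 of the 27 uncalled pairs both means were under 1 TPM, as for the transcription factor gene Gata6, the Hippo pathway coactivator gene Yap1 and the Wnt receptor gene Fzd6 at 0.01, 0.0067 and 0.117 TPM.

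The median difference was -4.35 over 142 tested diverging pairs and -3.17 over 36 with overlapping starts, while the members' own median level was 0.245 TPM in the former and 0.132 in the latter, and 22 and 6 of them passed 1 TPM. This split goes by the closest starts, and some diverging pairs, such as AC114539.1 and Nfkb2, have overlapping gene spans too. An exon overlapped an exon on the other strand in 81 members, of which 17 passed 1 TPM, against 12 of 120 without such overlap, and their median levels were 0.217 and 0.115 TPM. The part of reads from the overlapping gene in this was not tested. Of single-exon members 7 of 50 passed and of multi-exon members 22 of 151, with medians of 0.29 and 0.13 TPM. The shares by exon overlap and exon number were not computed for other noncoding genes.

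The second transcript table put many members higher. There 76 members passed 1 TPM, where 57.5% of all genes tested did, and 27 of the 29 were among them. It had 24 members above their partner, where 15.2% of all pairs lay above. Of the 43 members with a mean of at least 1 TPM, 27 were within 2-fold in both tables and the median ratio of the second to the first was 1.24. AC132253.4 had 3.45 TPM in the gene table and 32.1 in the second, close to the 32.2 TPM of Incenp there, and Gm2449 had 3.58 and 40.1, with Wdr48 at 49.0 TPM, so that its pair difference of -3.52 became -0.33 and lost its call (limma adjusted p = 0.184). Gm49494 had 1.33 and 17.6, and Gm20337 1.22 and 6.99. Of the members at 0 in the gene table, 17 had at least 1 TPM in the second, the highest being 4930563E18Rik with 9.603 TPM. The levels of A930037H05Rik (123 TPM), E230013L22Rik (41.1), AC114539.1 (19.2) and Gm16675 (10.6) were within 2-fold of those in the gene table.

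Genes of the machinery that is known to end and remove promoter upstream transcripts were mostly above 1 TPM. Of 43 symbols listed for the nuclear exosome, its NEXT and PAXT adaptors, the cap-binding complex, Integrator and the U1 particle, 39 were matched and 36 of these passed 1 TPM, with a median of 11.6 TPM. The symbols without a match were Skiv2l2, Cpsf3l, Asun and Vwa9. Over all genes tested, 61.9% of protein-coding genes and 51.1% of all genes passed, and the list was not tested against these shares. The adaptor genes Zfc3h1 and Rbm7 had 104, 94.99 and 85.6 TPM and 89.1, 47.3 and 87.6 TPM, and the exosome helicase gene Mtrex had 33.8, 28.6 and 33.2. The U1 protein gene Snrnp70 had 153, 177 and 169 TPM and the cap-binding partner gene Srrt 150, 178 and 156. The catalytic exosome genes Exosc10 and Dis3 were lower, at means of 19.8 and 7.33 TPM. The core subunit gene Exosc4 and the Integrator gene Ints5 did not pass, at means of 0.753 and 1.30 TPM, and Exosc6 was at 0. These are levels on chromatin of the genes' own transcripts, and their part in the members' levels was not tested.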

How the data were processed

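Per the labels and the notes deposited with them, chromatin-fraction total RNA depleted of ribosomal RNA was sequenced from 3 macrophage libraries of 1 group, aligned to mm10 with GENCODE M21. The authors deposited expected counts and TPM per gene and, in a second transcript table estimated directly from the reads per the deposited notes, estimated counts and TPM per transcript, which were summed per gene. Aligner, tools and strand use: not given in the sources used here. Rows that name no gene held 0.401% to 1.04% of counts and were left out. A gene at 0 counts allows 3 counts, or 0.164 to 0.242 CPM per library. Intercepts of log2(TPM + 0.1) were tested with limma 3.58.1 against 1 TPM (one-sided, 24180 genes) and within-library differences against 0 (two-sided, 1697 pairs), adjusted by Benjamini-Hochberg and called under 0.05. Fold changes on this scale understate differences of low genes. Both tests were tried on simulated data first. The 25 named members were the 15 highest, the 6 highest and 6 lowest against partners among pairs with a mean of at least 1 TPM in either gene, the 5 most variable at 1 TPM or more, and those beside listed immune genes; others were named after their values were seen. The members and lists were chosen with earlier results of these data known. Alternatives used edgeR 4.0.16 and DESeq2 1.42.0 scaling (rounded counts), R 4.3.3, pseudocounts of 1 and 0.01, a mean count of at least 10, CPM, the second table, other partner limits and each library left out. Python 3.11.15 with pandas 2.3.3, numpy 2.4.6, scipy 1.17.1 and matplotlib 3.10.9 was used.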

Additional observations from a re-analysis of the deposited data

How the results depend on the processing

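The counts of 29 members above 1 TPM, 4 above and 147 below their partner stayed within 1.5 times under the other pseudocounts, the count filter, CPM, either scaling and other partner limits, except as follows. The second table gave 76 above 1 TPM and 24 above the partner, a floor of 5 TPM left 7, and pairs with separate gene spans, being fewer, left 97 below. Leaving out a library gave 25 to 26, 4 to 5 and 140 to 142. For single named members, 454 values under an alternative kept direction and call, 15 lost and 8 gained a call, and 24 changed sign; the changes against 5 TPM follow from the higher floor, and the cause was not tested for the others. Against 5 TPM, log2 levels were -0.24 for 9330151L19Rik, -0.26 for 4930534H18Rik, -0.79 for Gm2449, -0.51 for 4933412E12Rik, -0.73 for AC132253.4 and -1.96 for Gm20337. In CPM, without length correction, they were -1.17 for Gm47126, -0.26 for Gm2449, -1.17 for AC132253.4, -0.13 for Gm20337 and 0.74 for A130014A01Rik, and the pair differences were 0.13 for E230013L22Rik and -3.24 for Ndufb1-ps. In the second table, levels were -3.46 for Gm47126, 2.10 for 2310010J17Rik, 0.53 for A130014A01Rik and 0.40 for Gm49066, and the E230013L22Rik pair difference was 0.0040. A pseudocount of 1 gave 0.0341 for A130014A01Rik. Leaving out a library gave levels of -1.64 to 0.71 for 2310010J17Rik, -0.53 to 0.28 for A130014A01Rik, -0.60 to 0.23 for Gm49066 and a difference of -0.0062 to 0.18 for Ndufb1-ps. No paired analysis was possible because there was 1 group, and each pair difference is already within a library.

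Members with few counts limit what these depths show: under 3 counts over the group a level cannot be told from 0. Overlapping or copied genes can share reads, which was not tested, and strand use is not given in the sources used here.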
